A study of Mus musculus with 8 samples.

Results

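The secreted Wnt inhibitors examined here are 10 genes, namely the secreted frizzled-related proteins Sfrp1, Sfrp2, Sfrp4, Sfrp5 and Frzb, the Dickkopf genes Dkk1, Dkk2 and Dkk3, and Wif1 and Notum. They were found by matching the Entrez identifiers of the count tables to their mouse symbols in RefSeq, which located all 10 among 27164 genes. The genes were chosen by function, but with earlier results known in which Sfrp1 and Sfrp2 stood higher in Tspan8-high cells. Differences between Tspan8 levels are therefore given as a description without a test, and tests are given for the Lgr5 comparisons, the interaction and the batches. Tspan8 transcripts also differed with Lgr5, so the Lgr5 tests of Sfrp1 and Sfrp2 are not wholly independent of those earlier results. The interaction equals the Tspan8 difference in Lgr5+ cells minus that in Lgr5- cells. Its tests of Sfrp1 and Sfrp2 are therefore not wholly independent of them either.

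Total RNA was sequenced from mammary basal cells, which form the contractile outer sheet around the ducts, sorted by flow cytometry from untreated 10-week-old C57BL/6 females. All animals carried the Lgr5-GFP-IRES-CreERT2 allele, which places green fluorescent protein and a tamoxifen-inducible Cre under the control of the Lgr5 gene. Lgr5 encodes an R-spondin receptor. Tspan8 (T8), a tetraspanin of the cell surface, was the second sort marker. Tspan8-high cells were split into Lgr5+T8hi and Lgr5-T8hi, and cells labelled T8- into Lgr5+T8- and Lgr5-T8-, with 2 libraries each, 1 from batch 1 and 1 from batch 2. How many mice went into a library, and whether its replicate was taken from other mice, is not stated in the labels. The p-values therefore measure no more than how far these samples spread, and that spread may be technical.

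Wnt proteins bind Frizzled receptors and the co-receptors Lrp5 and Lrp6 and stabilise beta-catenin, and in the mammary gland this pathway maintains basal stem and progenitor cells. Secreted inhibitors act outside the cell at different points of this step. Sfrp proteins, Frzb and Wif1 bind Wnt ligands directly. Dkk1 and Dkk2 occupy the Lrp5/6 co-receptors, and Notum removes the lipid that Wnt ligands need for activity. Dkk3 is a divergent Dickkopf whose effect on Wnt signalling depends on the setting. R-spondins, the ligands of Lgr5, raise the sensitivity of a cell to Wnt.

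The stretch of 250 bases before the RefSeq start site was at hand for 6 of the 10 genes (GRCm38.p6), which were Sfrp2, Sfrp5, Frzb, Dkk1, Dkk2 and Wif1. A gene can have several start sites. For Sfrp2 the start site used lies at base 83766321, 571 bases inside the whole RefSeq span of the gene, and for Dkk2 at base 132085292, 26 bases inside it, while for the other 4 genes it is the base at which that span begins on the gene's strand. In the GENCODE M21 annotation Dkk1, Frzb and Wif1 begin further upstream, at bases 30549665, 80447625 and 121033960. By that annotation the gene covers part of each of these stretches. Those of Sfrp2, which was higher in Lgr5+ cells, of Wif1, which was lower, and of Dkk1, which was scarce in every library, are shown 5′ to 3′ to set the 3 patterns of level beside their promoters. Capitals mark matches, on either strand, to the core of the TCF/LEF site through which beta-catenin acts (CTTTGA), the GC box (GGGCGG), the TATA box (TATAAA) and the CCAAT box (CCAAT).
Sfrp2, chr3:83766071-83766320, plus strand: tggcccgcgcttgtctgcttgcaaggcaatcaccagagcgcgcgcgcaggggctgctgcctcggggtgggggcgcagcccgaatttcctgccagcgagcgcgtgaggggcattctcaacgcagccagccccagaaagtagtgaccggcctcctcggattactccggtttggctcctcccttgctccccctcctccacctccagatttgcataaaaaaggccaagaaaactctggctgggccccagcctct
Wif1, chr10:121033754-121034003, plus strand: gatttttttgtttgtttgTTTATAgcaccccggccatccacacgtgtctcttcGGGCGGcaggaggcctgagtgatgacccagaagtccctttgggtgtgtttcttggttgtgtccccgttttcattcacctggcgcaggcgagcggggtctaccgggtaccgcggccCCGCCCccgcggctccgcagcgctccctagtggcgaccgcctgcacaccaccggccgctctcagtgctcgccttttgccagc
Dkk1, chr19:30549497-30549746, minus strand: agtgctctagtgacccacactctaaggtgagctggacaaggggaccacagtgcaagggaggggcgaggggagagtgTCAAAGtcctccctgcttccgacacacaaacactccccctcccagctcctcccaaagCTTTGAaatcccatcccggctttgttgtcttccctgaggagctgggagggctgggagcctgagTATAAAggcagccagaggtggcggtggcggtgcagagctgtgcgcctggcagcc
The Sfrp2 stretch held no match to any of these letters. The Wif1 stretch held 2 GC boxes, beginning 197 and 82 bases before the start site, and 1 TATA box at 232 bases. The Dkk1 stretch held 2 TCF/LEF cores, beginning 174 and 117 bases before the start site, and 1 TATA box at 54 bases. Among the other 3 genes, Frzb held 1 TCF/LEF core. Of 32851 such stretches in the table, 13.8% held the TCF/LEF core, 32.7% the GC box, 12.4% the TATA box and 33.8% the CCAAT box. These matches describe the letters only.

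Total gene counts ran from 24571300 to 38384875 per library, where 3 counts correspond to 0.0799 to 0.120 CPM (counts per 1e+06 counts, scaled for composition). Basal keratin transcripts were abundant in all 8 libraries, Krt5 at 2105 to 2753 CPM. Lgr5 stood at 174 and 193 CPM in Lgr5+T8hi cells and 119 and 129 in their Lgr5-T8hi counterparts, with 185 and 212 in Lgr5+T8- cells and 58.3 and 50.5 in their Lgr5-T8- counterparts, so that the Lgr5- label denotes less and not none. Tspan8 stood at 289 and 261 CPM in Lgr5+T8hi against 167 and 150 in Lgr5-T8hi cells. In Lgr5+T8- cells it stood at 10.6 and 6.82 CPM, against 4.36 and 3.16 in Lgr5-T8- cells. The Lgr5 comparisons thus also set higher against lower Tspan8, and the part of this in their results was not tested. Markers of other cell types were present too. All 15 fibroblast markers were detected in every library, and their summed level was 2193 to 2418 CPM in Lgr5+T8hi cells and 1656 to 1856 in their Lgr5-T8hi counterparts, with 1295 to 1337 in Lgr5+T8- cells and 1176 to 1341 in their Lgr5-T8- counterparts. The 10 endothelial markers summed to 485 to 532, 173 to 307, 124 to 161 and 214 to 222 CPM in the same populations, and the 12 immune markers to 91.7 to 147, 63.6 to 84.7, 47.1 to 78.8 and 53.1 to 98.2 CPM. The 7 adipocyte markers summed to 235 to 333, 102 to 129, 48.4 to 75.4 and 71.0 to 76.8 CPM, with Adipoq, which defines the type, at 0 to 0.220 CPM. The 18 luminal markers summed to 1990 to 2651, 1794 to 2472, 1495 to 2302 and 1237 to 1601 CPM. The 12 markers of contractile function, a trait of basal cells, summed to 10899 to 12468, 12144 to 13361, 16049 to 18812 and 19871 to 21499 CPM. In such bulk samples, fewer cells of a type and less RNA per cell cannot be told apart.

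All 10 genes passed the filter on low counts and entered the tests. Frzb passed it with 4 libraries above the cutoff of 0.292 CPM, none of them from Lgr5+T8- cells, so that its presence among the tested genes rested on the other populations. Dkk2 had 7 libraries above it, with Lgr5+T8- replicate 2 below. The other 8 genes were above the cutoff in all 8 libraries.

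**Figure D1:**
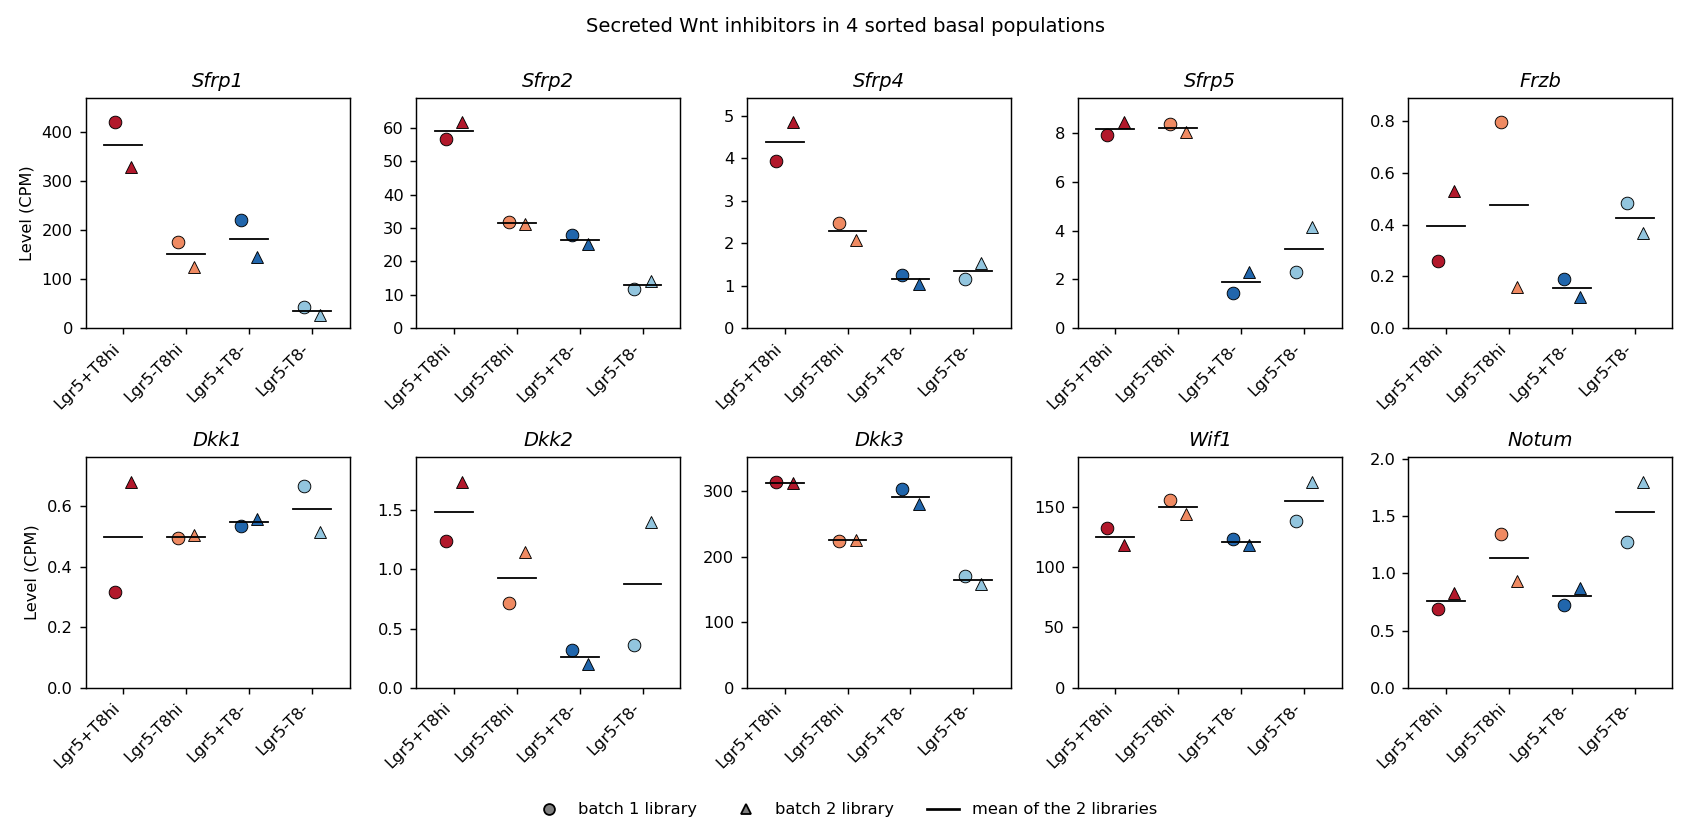
Level of each inhibitor (CPM, linear axes from 0, a separate scale for each gene) in the 4 populations, Lgr5+T8hi at the left and Lgr5-T8- at the right. Circles are batch 1 and triangles batch 2 libraries, and the line is their mean. Sfrp1 spans 25.9 to 419 CPM, whereas Wif1 stays between 118 and 171 CPM.

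Scaled by gene length, 4 of the 10 genes made up nearly all of the inhibitor transcripts. In RPKM, which is CPM per kilobase, the 10 genes summed to 272 ± 17.1 in Lgr5+T8hi cells and 191 ± 12.4 in their Lgr5-T8hi counterparts, with 198 ± 18.8 in Lgr5+T8- cells and 136 ± 7.05 in their Lgr5-T8- counterparts (SD, n = 2 each). The sum was thus 2.00 times as high in Lgr5+T8hi as in Lgr5-T8- cells. Dkk3 led in Lgr5+T8hi cells with 34.3% of the sum, followed by Sfrp1 with 31.4%, Wif1 with 20.5% and Sfrp2 with 10.9%. In Lgr5-T8- cells Wif1 led with 50.7%, Dkk3 held 35.9%, Sfrp1 5.75% and Sfrp2 4.78%. Sfrp5 and Sfrp4 followed on the same scale, at 0.990 to 4.31 and 0.652 to 2.49 RPKM on average in a population. Notum, Dkk1, Dkk2 and Frzb stayed under 1 RPKM in every library, the highest being Notum at 0.892. These sums carry no test.

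**Figure D2:**
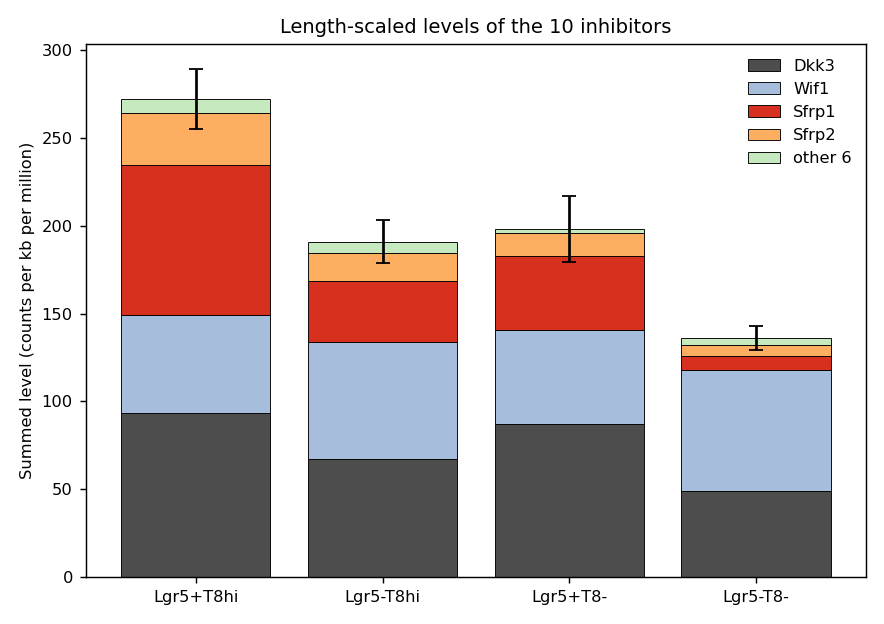
Mean length-scaled level (RPKM) of Dkk3, Wif1, Sfrp1, Sfrp2 and the sum of the other 6 inhibitors in each population, stacked. Error bars are the SD of the summed level over 2 libraries. The Sfrp1 block is 85.4 RPKM in Lgr5+T8hi and 7.82 RPKM in Lgr5-T8- cells.

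The first comparison was of Lgr5+ with Lgr5- cells, averaged over both Tspan8 levels, which asks how the inhibitors differ with the expression of an R-spondin receptor. Sfrp1, Sfrp2 and Dkk3 were higher in Lgr5+ cells and Wif1 was lower. These are 4 of the 10 genes, 3 higher and 1 lower, against 9.09% of the 16526 genes tested (4.23% higher and 4.86% lower) at an adjusted p under 0.05. The median log2 fold change of the 10 genes was -0.20, against 0.01 over all genes tested.

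Sfrp1 (Entrez 20377, chromosome 8, 23411383 to 23449632, GRCm38.p6), a ligand-binding inhibitor, had the largest Lgr5 difference of the 10 genes. It stood at 419 and 328 CPM in Lgr5+T8hi against 176 and 125 CPM in Lgr5-T8hi cells. In T8- cells it stood at 220 and 144 CPM in Lgr5+T8- against 42.5 and 25.9 CPM in Lgr5-T8- cells. Every Lgr5+ library was above both Lgr5- libraries of its Tspan8 level, while the ranges of Lgr5+T8- and Lgr5-T8hi cells overlapped in the middle of the order. Here and for the genes below, the share of all genes whose libraries separate in such ways was not counted. The difference between Lgr5+ and Lgr5- cells was 1.87 ± 0.08 on the log2 scale (± standard error over all 8 libraries, edgeR adjusted p = 2.17e-07), which is 3.66-fold, with 1.81 in batch 1 and 1.93 in batch 2.

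Sfrp2 (Entrez 20319, chromosome 3, 83765750 to 83774314), its close relative, was also highest in Lgr5+T8hi and lowest in Lgr5-T8- cells, but between them Lgr5-T8hi stood above Lgr5+T8- cells. It stood at 56.6 and 61.7 CPM in Lgr5+T8hi against 31.9 and 31.3 CPM in Lgr5-T8hi cells. In T8- cells it stood at 27.8 and 25.1 CPM in Lgr5+T8- against 11.8 and 14.3 CPM in Lgr5-T8- cells. All 4 populations were separate in their libraries, a separation whose share over all genes was not counted. The Lgr5 difference was 0.97 ± 0.08 (edgeR adjusted p = 1.69e-05), with 1.03 in batch 1 and 0.89 in batch 2. Sfrp2 shares 347 exon bases with the antisense gene Gm26771 in GENCODE M21, and since no source used here gives the strand setting of the counting, reads of the pair cannot be told apart.

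Dkk3 (Entrez 50781, chromosome 7, 112116019 to 112159482) had the highest length-scaled level of the 10 genes averaged over the 8 libraries, 74.0 RPKM. It stood at 314 and 312 CPM in Lgr5+T8hi against 225 and 225 CPM in Lgr5-T8hi cells, and at 303 and 281 CPM in Lgr5+T8- against 170 and 158 CPM in Lgr5-T8- cells. Both Lgr5+ populations were thus above both Lgr5- populations. The Lgr5 difference was 0.65 ± 0.06 (edgeR adjusted p = 7.08e-05), with 0.66 in batch 1 and 0.65 in batch 2.

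Wif1 (Entrez 24117, chromosome 10, 121034004 to 121100642), which binds Wnt ligands through a domain of its own, went the other way by a small amount. It stood at 132 and 118 CPM in Lgr5+T8hi against 156 and 144 CPM in Lgr5-T8hi cells, and at 123 and 119 CPM in Lgr5+T8- against 139 and 171 CPM in Lgr5-T8- cells. Each of the 4 Lgr5+ libraries was below all 4 Lgr5- libraries, but the share of all genes that separate like this was not counted. The Lgr5 difference was -0.31 ± 0.08 (edgeR adjusted p = 0.0323), but it passed the threshold no more when any of the 4 T8hi libraries or either Lgr5+T8- library was left out, with adjusted p-values up to 0.188, or when batch was left out of the model (edgeR adjusted p = 0.305).

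Among the scarce members, Notum, which is itself induced by Wnt signalling, was at 0.343 and 0.412 RPKM in Lgr5+T8hi against 0.666 and 0.461 RPKM in Lgr5-T8hi cells. It was at 0.359 and 0.434 RPKM in Lgr5+T8- against 0.630 and 0.892 RPKM in Lgr5-T8- cells. With 22 to 49 counts per library, the difference of -0.76 ± 0.25 did not pass the threshold (edgeR adjusted p = 0.0835). Its libraries did not overlap between Lgr5+ and Lgr5- cells at either Tspan8 level. With 2 libraries on each side such separation can arise without any difference, and its share over all genes was not counted. Notum shares 708 exon bases with the antisense gene Notumos and 210 with the antisense gene Myadml2os, so its counts are uncertain. Sfrp5 had a difference of -0.39 ± 0.17 (edgeR adjusted p = 0.188). The other 4 genes, Sfrp4, Frzb, Dkk1 and Dkk2, had unadjusted p-values between 0.0783 and 0.785 in the same edgeR test. Dkk1 had 11 to 22 counts in every library. Its 95% interval for the Lgr5 difference ran from -0.79 to 0.61, so differences within that range remain compatible with these counts. It stood at 0.317 and 0.681 CPM in Lgr5+T8hi against 0.494 and 0.506 CPM in Lgr5-T8hi cells, and at 0.535 and 0.558 CPM in Lgr5+T8- against 0.667 and 0.515 CPM in Lgr5-T8- cells, with overlap between Lgr5+ and Lgr5- cells at both Tspan8 levels. Frzb, which had 3 to 29 counts, stood at 0.259 and 0.529 CPM in Lgr5+T8hi against 0.796 and 0.160 CPM in Lgr5-T8hi cells, and at 0.189 and 0.120 CPM in Lgr5+T8- against 0.485 and 0.368 CPM in Lgr5-T8- cells. Its libraries overlapped within T8hi and were separate within T8- cells, where the Lgr5+ libraries held 9 counts together.

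Markers of basal cells and of other cell types also differed with Lgr5, where 4.23% of all genes tested were higher and 4.86% lower. Of 15 fibroblast markers 7 were higher in Lgr5+ cells and 2 lower, with a median log2 fold change of 0.46. Of 18 luminal markers 6 were higher and 2 lower, and 4 of 14 basal markers were higher and 1 lower. Lower were 5 of 12 contractile, 3 of 8 pericyte, 3 of 8 keratinocyte and 1 of 8 Schwann cell markers tested, and 1 of 12 immune markers was higher. Counts of 1 in such short lists are not far from what those shares give. The part of these markers in the differences of the inhibitors was not tested.

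The Lgr5 difference was then taken at each Tspan8 level. Within T8hi cells, Sfrp1, Sfrp2 and Dkk3 were higher in Lgr5+T8hi than in Lgr5-T8hi cells, which is 3 of 10 against 2.29% of all genes tested that were higher (1.05% were lower and 3.34% either). Sfrp1 was higher by 1.32 ± 0.10, Sfrp2 by 0.90 ± 0.11 and Dkk3 by 0.48 ± 0.09 (edgeR adjusted p = 2.22e-04, 0.00210 and 0.0154). Without batch in the model none of these 3 passed (edgeR adjusted p = 0.273, 0.179 and 0.366). Dkk3 lost its call without any 1 of the 4 T8hi libraries (adjusted p up to 0.360), and Sfrp2 lost its call without Lgr5+T8hi replicate 2 (edgeR adjusted p = 0.0519). Sfrp4, a relative that stood at 3.92 and 4.84 CPM in Lgr5+T8hi against 2.47 and 2.08 CPM in Lgr5-T8hi cells, had a difference of 0.94 ± 0.24 that missed the threshold (edgeR adjusted p = 0.0554). At this Tspan8 level fibroblast and immune markers were higher too, 6 of 15 and 7 of 12 of them, with medians of 0.77 and 1.36. So were 2 of 10 endothelial, 2 of 18 luminal and 1 of 5 adipocyte markers tested, while 2 contractile and 1 luminal marker were lower, and their part in the result was not tested.

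Within T8- cells the same genes, Sfrp1, Sfrp2 and Dkk3, were higher in Lgr5+T8- than in Lgr5-T8- cells, 3 of 10 against 3.81% of all genes that were higher (5.05% were lower and 8.86% either). Sfrp1 was higher by 2.42 ± 0.11, which is 5.34-fold, Sfrp2 by 1.03 ± 0.12 and Dkk3 by 0.83 ± 0.09 (edgeR adjusted p = 8.72e-07, 1.74e-04 and 1.59e-04). Dkk2, which stood at 1.24 and 1.74 CPM in Lgr5+T8hi against 0.714 and 1.15 CPM in Lgr5-T8hi cells, was at 0.315 and 0.199 CPM in Lgr5+T8- against 0.364 and 1.40 CPM in Lgr5-T8- cells. Its difference of -1.57 ± 0.55 rests on 5 to 38 counts and on the batch 2 library of Lgr5-T8- cells, and it did not pass the threshold (edgeR adjusted p = 0.109). Sfrp5 had -0.77 ± 0.26, Notum -0.93 ± 0.35 and Wif1 -0.36 ± 0.11 (edgeR adjusted p = 0.0944, 0.136 and 0.0795). In the same comparison 3 of 15 fibroblast markers were higher and 3 lower, with a median of 0.17, and 7 of 18 luminal markers were higher and 1 lower. Among the markers that were lower were 5 of 12 contractile, 4 of 8 pericyte and 4 of 8 keratinocyte genes tested, together with 1 of 10 endothelial genes. Of 14 basal markers 3 were higher and 1 lower, and the part of these changes in the result was not tested.

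**Figure D3:**
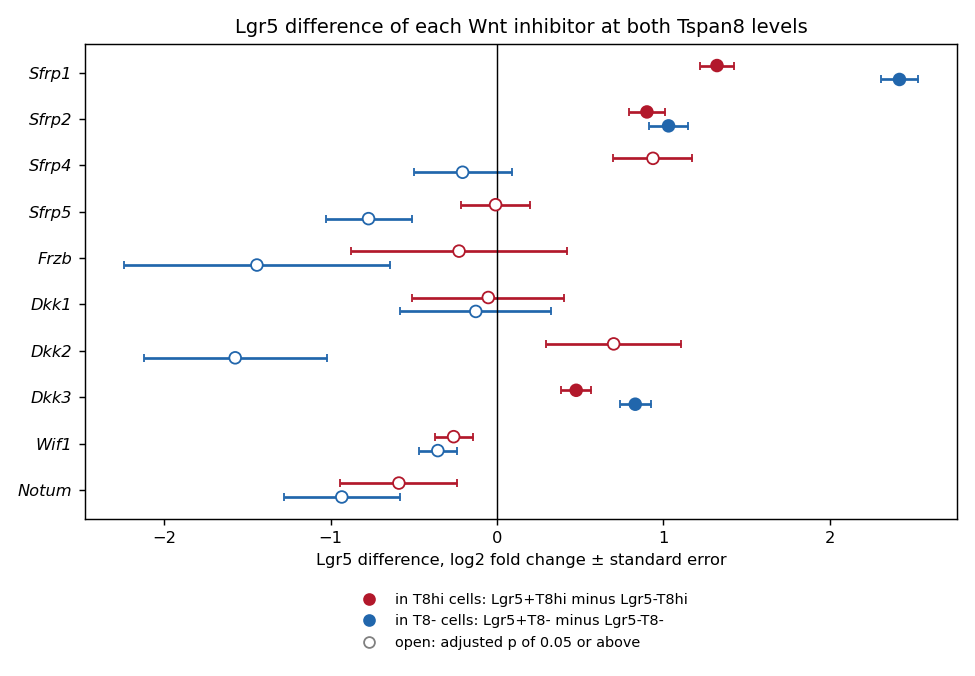
Lgr5 difference of each inhibitor (log2 fold change ± standard error, 2 libraries per population) within T8hi cells, in red, and within T8- cells, in blue. Filled points passed the threshold. Sfrp1 has 1.32 within T8hi and 2.42 within T8- cells, and its error bars do not meet.

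Whether the Lgr5 fold difference differs between the Tspan8 levels was tested by the interaction, in which Sfrp1 passed the threshold. The same value is the Tspan8 difference in Lgr5+ cells minus that in Lgr5- cells. For Sfrp1 and Sfrp2 this test is thus not wholly independent of the earlier Tspan8 results. Of the 10 genes 1 passed, against 2.55% of all genes tested (0.363% in its direction and 2.18% in the other). The Sfrp1 fold difference was smaller within T8hi than within T8- cells. In mean CPM the gap was wider within T8hi, 373 against 151, than within T8- cells, 182 against 34.2. The interaction was -1.10 ± 0.15 on the log2 scale (edgeR adjusted p = 0.00285), with -1.12 in batch 1 and -1.09 in batch 2. It passed the threshold without any 1 of the 8 libraries, with adjusted p-values from 6.85e-04 to 0.0390. Without batch in the model it did not pass (edgeR adjusted p = 0.708). For Sfrp2 the interaction was -0.13 ± 0.16 (edgeR adjusted p = 0.846), with a 95% interval of -0.47 to 0.21, so that an interaction of the size seen in Sfrp1 lies outside it. Dkk2 and Sfrp4 had estimates of 2.27 ± 0.68 and 1.14 ± 0.38 and Dkk3 one of -0.35 ± 0.13, none of which passed (edgeR adjusted p = 0.136, 0.185 and 0.248). In the same test 5 of 12 immune, 3 of 10 endothelial, 3 of 15 fibroblast, 2 of 8 pericyte, 2 of 8 keratinocyte, 1 of 5 adipocyte and 1 of 12 contractile markers passed, each with a positive interaction. Their part in the result was not tested. Lgr5 itself differed less within T8hi, at 174 and 193 against 119 and 129 CPM. Within T8- cells it stood at 185 and 212 against 58.3 and 50.5 CPM. The part of this unequal separation in the Sfrp1 interaction was not tested.

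Between Tspan8 levels, the values are a description. Averaged over Lgr5 status, the log2 difference between T8hi and T8- cells was 1.77 for Sfrp5, 1.61 for Sfrp1, 1.34 for Sfrp4, 1.31 for Dkk2, 1.22 for Sfrp2, 0.71 for Frzb, 0.28 for Dkk3, 0.00 for Wif1, -0.22 for Dkk1 and -0.24 for Notum. All 4 T8hi libraries of Sfrp5 were above all 4 T8- libraries, with overlap between Lgr5+ and Lgr5- cells at both Tspan8 levels, at 7.90 and 8.43 CPM in Lgr5+T8hi and 8.35 and 8.04 CPM in Lgr5-T8hi, against 1.45 and 2.31 CPM in Lgr5+T8- and 2.30 and 4.15 CPM in Lgr5-T8- cells. Sfrp4 stood at 1.26 and 1.04 CPM in Lgr5+T8- and 1.15 and 1.54 CPM in Lgr5-T8- cells, where its ranges overlapped, below all 4 T8hi libraries. How many of all genes separate by Tspan8 level in this way was not counted. For Sfrp1 the difference was 1.06 between Lgr5+T8hi and Lgr5+T8- cells and 2.16 between Lgr5-T8hi and Lgr5-T8- cells. For Sfrp4 these were 1.91 and 0.77 and for Dkk2 2.44 and 0.17. The Tspan8 values come from the same libraries as the Lgr5 comparisons. Markers of basal cells and of other cell types moved with the Tspan8 level too, where edgeR called 14.6% of all genes (9.13% higher and 5.52% lower). Higher in T8hi cells were 13 of 15 fibroblast, 13 of 18 luminal, 7 of 10 endothelial, 6 of 8 pericyte, 5 of 12 immune, 3 of 5 adipocyte and 3 of 8 Schwann cell markers tested, with 1 keratinocyte and 1 contractile marker. Lower were 10 of 12 contractile, 4 of 14 basal, 3 of 8 keratinocyte and 1 adipocyte marker. Between Lgr5+T8hi and Lgr5+T8- cells, 13 fibroblast, 11 luminal, 10 endothelial, 8 immune and 6 pericyte markers were higher and 9 contractile markers lower, against 9.44% of all genes (7.27% higher and 2.17% lower). Between Lgr5-T8hi and Lgr5-T8- cells, 10 fibroblast and 13 luminal markers were higher, 9 contractile and 1 fibroblast marker were lower and no endothelial, immune or pericyte marker passed, against 7.06% (3.7% higher and 3.36% lower). The part of these markers in the values of the inhibitors was not tested.

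The 2 batches differed in many genes, 32.9% of those tested (16% higher and 16.9% lower in batch 2), and in 1 of the 10 inhibitors. Sfrp1 was lower in batch 2, with a log2 difference of -0.54 ± 0.07 (edgeR adjusted p = 3.51e-04), and the batch 2 library was the lower of the pair in each of the 4 populations. The labels do not say what a batch stands for.

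Across the 8 libraries, after each batch was centred, the levels of Sfrp1 and Dkk3 had a Pearson r of 0.955, those of Sfrp1 and Sfrp2 0.959 and those of Dkk3 and Wif1 -0.807, which describes these libraries only, since all genes share library, batch and depth. Among 10555 candidate genes, the pattern of Dkk3 was most like that of Adgra3 (r = 0.998), an adhesion G protein-coupled receptor, the ligand gene Wnt9a (0.997) and Pdzd4 (0.995). That of Sfrp1 was most like Col6a1 (0.996), a collagen VI chain, Tgfb1 (0.995), a growth factor, and Adamts1 (0.994), a matrix protease. Col6a1 stood at 468 and 446 CPM in Lgr5+T8hi cells and 281 and 237 in their Lgr5-T8hi counterparts, with 271 and 257 in Lgr5+T8- cells and 103 and 89.5 in their Lgr5-T8- counterparts, with the overlap of the middle populations that Sfrp1 had.

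The rest of the Wnt pathway was set beside the inhibitors for the Lgr5 comparison, in which 4.23% of all genes tested were higher and 4.86% lower. Among 13 other antagonists 10 were tested, of which 1 was higher and 2, Igfbp4 and Kremen1, were lower in Lgr5+ cells, with a median of -0.03. Trabd2b, which encodes a membrane protease that cleaves Wnt ligands, was at 0.65 ± 0.07 (edgeR adjusted p = 1.28e-04). It averaged 83.2 ± 14.1 CPM in Lgr5+T8hi against 57.1 ± 11.1 in Lgr5-T8hi cells and 83.3 ± 20.6 in Lgr5+T8- against 48.5 ± 3.40 in Lgr5-T8- cells (SD, n = 2). Igfbp4, an IGF-binding protein that also inhibits Wnt co-receptors, had an interaction of 1.70 ± 0.12 (edgeR adjusted p = 9.49e-05). It averaged 72.1 ± 4.77 CPM in Lgr5+T8hi against 57.5 ± 6.28 in Lgr5-T8hi cells and 37.8 ± 4.25 in Lgr5+T8- against 97.9 ± 14.9 in Lgr5-T8- cells. Kremen1, a receptor for Dickkopf proteins, fell by 0.27 on the log2 scale (edgeR adjusted p = 0.0350), a call lost without any of 6 of the 8 libraries taken singly.

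Of 19 Wnt ligand genes 14 were tested, of which 2 were higher and 2 lower, against 4.23% and 4.86% of all genes, with a median of 0.20. Wnt11 rose by 0.81 ± 0.07 and Wnt9a by 0.88 ± 0.09, while Wnt6 had -0.78 ± 0.12 (edgeR adjusted p = 2.93e-05, 9.74e-05 and 0.00174). The other lower gene, named after its values were seen, was Wnt3, with 17 and 42 counts in Lgr5-T8- and 0 to 4 in the other libraries. Wnt4, a ligand named after its values were seen, had an interaction of 1.35 ± 0.28 (edgeR adjusted p = 0.0271) and averaged 7.38 CPM in Lgr5+T8hi against 4.42 in Lgr5-T8hi cells and 4.49 in Lgr5+T8- against 6.89 in Lgr5-T8- cells. It had 247 and 202 counts in Lgr5+T8hi against 161 and 166 in Lgr5-T8hi libraries, and 176 and 86 in Lgr5+T8- against 235 and 181 in Lgr5-T8- libraries. Of the 15 receptors and co-receptors, 1 passed, a share near that over all genes. It was Ror2, a receptor for Wnt5a, at -1.70 ± 0.19 (edgeR adjusted p = 2.10e-04). It averaged 2.12 ± 0.265 CPM in Lgr5+T8hi cells and 2.71 ± 0.403 in their Lgr5-T8hi counterparts, with 1.22 ± 0.370 in Lgr5+T8- cells and 10.3 ± 2.74 in their Lgr5-T8- counterparts.

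Of 12 target genes and nuclear factors, 4 were lower in Lgr5+ cells, against 4.86% of all genes tested, with a list median of -0.08. Taken by Tspan8 level, 0 of the 12 were lower within T8hi cells, against 1.05% of all genes. Within T8- cells 3 were lower, against 5.05%. Tnfrsf19, a receptor induced by Wnt, was at -1.92 ± 0.23, Nkd2, a feedback inhibitor, at -1.11 ± 0.17 and the DNA-binding factor Tcf7l2 at -0.31 ± 0.06 (edgeR adjusted p = 2.88e-04, 0.0112 and 0.00863). The fourth was Axin2, a widely used target of the pathway, named after its values were seen. It averaged 22.7 ± 3.55 CPM in Lgr5+T8hi cells and 26.7 ± 1.94 in their Lgr5-T8hi counterparts, with 24.5 ± 0.373 in Lgr5+T8- cells and 31.7 ± 6.10 in their Lgr5-T8- counterparts, a difference of -0.30 ± 0.08 (edgeR adjusted p = 0.0320) that was lost without any of 6 of the 8 libraries taken singly. Tcf7l2 lost its call without Lgr5+T8hi replicate 1 or either Lgr5-T8hi library, and Nkd2 without Lgr5+T8hi replicate 2 or Lgr5-T8- replicate 1 (edgeR adjusted p up to 0.0781 and 0.0699). Wnt3 lost its call without Lgr5+T8hi replicate 2, without Lgr5-T8hi replicate 1 or without Lgr5+T8- replicate 2 (edgeR adjusted p up to 0.104). Without batch in the model, Wnt11, Wnt9a and Ror2 kept their calls for the Lgr5 difference, and the other genes of these 4 lists named here as called for it did not (edgeR adjusted p from 0.0625 to 0.607).

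**Figure D4:**
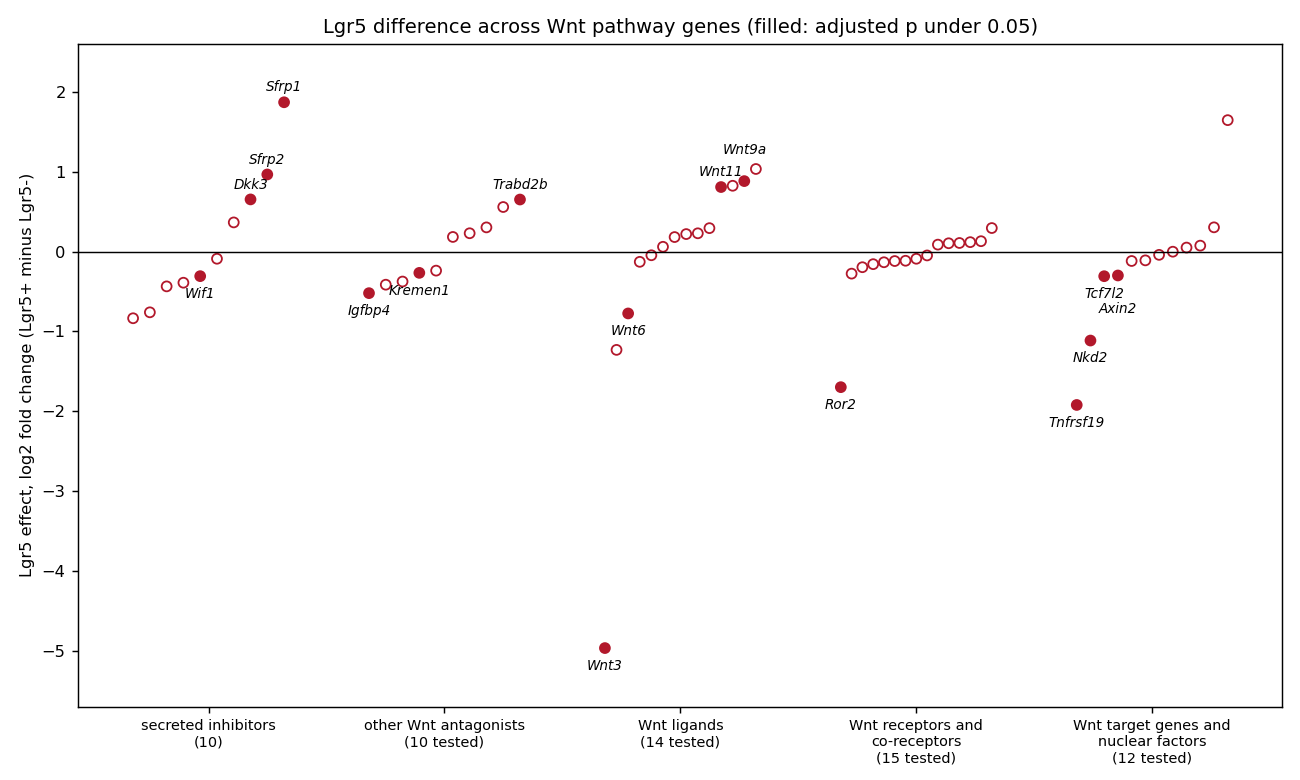
Lgr5 effect (log2 fold change, Lgr5+ minus Lgr5-, averaged over Tspan8 levels) of every tested gene in 5 groups of the Wnt pathway. Filled and named points passed the threshold. Sfrp1 is at 1.87, the highest of the filled points, and Wnt3, at -4.97, is a gene of 0 to 42 counts.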

How the data were processed

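The authors deposited raw read counts per Entrez gene for each of the 8 libraries, with a gene length, per the file headers. The submitters' processing notes name featureCounts, CASAVA 1.8.2, edgeR 3.10.2 and limma 3.24.14. The aligner and the strand setting are not given in the sources used here. Identifiers were matched to RefSeq for 25260 genes, and unmatched genes held 2.56 to 2.86% of counts.

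Counts were tested with edgeR 4.0.16 (R 4.3.3) by its quasi-likelihood test, two-sided, with TMM scaling, a minimum count of 10 in filterByExpr, and population and batch as terms. P-values were adjusted by Benjamini-Hochberg over 16526 genes, with a threshold of 0.05. CPM used TMM-scaled totals, and RPKM divided CPM by the deposited gene length. Standard errors are the log2 fold change over the root of F. Intervals cover 95%. Counts of 3 gave the floor, which covers counting error only. The test was also run on simulated counts with 200 changed genes and no difference between batches, which cannot show how it behaves with a batch difference.

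The labels give a batch equal to the replicate number, so same-numbered libraries were paired. Their deviations from the group means correlated at 0.415 to 0.550 in 6 of 6 pairs. Replicates differed by more than sampling noise (chi-square per degree of freedom 36.8 to 58.4).

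The members and lists were chosen with earlier results of these data known. All 10 members are named, with up to 3 genes of each other Wnt list by adjusted p and the 3 genes most like each of the 2 members with the highest mean CPM. Axin2, Wnt3 and Wnt4 were added after their values were seen. Alternatives were RLE scaling, other count filters, DESeq2 1.42.0, limma-voom (limma 3.58.1), a model without batch, and leaving out each library.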

Additional observations from a re-analysis of the deposited data

Results flagged for a closer look

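Among the inhibitors and the other Wnt genes, the Lgr5 difference itself differed between Tspan8 levels for 5 genes in the edgeR interaction test, which called 421 of all genes. Sfrp1 had an interaction of -1.10 ± 0.15 on the log2 scale (edgeR adjusted p = 0.00285), with a smaller Lgr5 fold difference within T8hi than within T8- cells. Igfbp4 had 1.70 ± 0.12 (edgeR adjusted p = 9.49e-05), Ror2 2.67 ± 0.39 (edgeR adjusted p = 0.00498), Wnt4 1.35 ± 0.28 (edgeR adjusted p = 0.0271) and Tnfrsf19 2.10 ± 0.48 (edgeR adjusted p = 0.0419). Tnfrsf19 averaged 0.809 ± 0.247 CPM in Lgr5+T8hi cells and 1.56 ± 1.15 in their Lgr5-T8hi counterparts, with 0.984 ± 0.412 in Lgr5+T8- cells and 7.40 ± 1.17 in their Lgr5-T8- counterparts (SD, n = 2), and its interaction was lost without any of 6 of the 8 libraries taken singly (adjusted p up to 0.224). The Wnt4 interaction was lost without either Lgr5+T8hi library, without Lgr5-T8hi replicate 1 or without Lgr5+T8- replicate 2 (adjusted p up to 0.181). None of the 5 passed without batch in the model (edgeR adjusted p from 0.0845 to 0.718). Lgr5 itself also differed less within T8hi than within T8- cells, and the part of this in these interactions was not tested.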

How the results depend on the processing

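With 2 libraries per population, the counts of calls depended on batch as a term. Without the replicate block, edgeR called 89 higher and 130 lower genes for the Lgr5 effect (699 and 803 with it), 64 and 144 within T8- (630 and 834), 1 and 0 for the interaction (361 and 60; 835 and 125 at an unadjusted p under 0.05), and 0 and 0 within T8hi (379 and 173; 752 and 342 unadjusted). For Tspan8 it called 550 and 155 (1509 and 912), 484 and 28 within Lgr5+ (1201 and 359) and 76 and 71 within Lgr5- (611 and 556). Of the 10 inhibitors it then called 0 lower for the Lgr5 effect (2 unadjusted), 0 higher within T8hi (4 unadjusted) and 0 lower for the interaction (2 higher and 1 lower unadjusted). limma-voom without the block, added after seeing the data, gave 83 and 115, 48 and 122, 1 and 0, 0 and 0 (831 and 336 unadjusted within T8hi), 472 and 140, 411 and 22, and 64 and 78 genes in the same order. At the adjusted threshold it gave the same counts of inhibitors as edgeR, but 1 higher and 1 lower unadjusted for the interaction.

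The lower calls of the interaction numbered 91 with no count filter and 39 with 1 CPM in 4 libraries. DESeq2 called 1 inhibitor lower within T8-, Wif1 (adjusted p = 0.0476). Sfrp4 within T8hi passed with no count filter and with limma-voom (adjusted p = 0.0344 and 0.0387).

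Leaving out 1 library at a time gave 342 to 1210 higher and 364 to 1408 lower genes for the Lgr5 effect, 23 to 597 and 11 to 356 within T8hi, 295 to 1078 and 455 to 1276 within T8-, 104 to 422 and 14 to 162 for the interaction, 1537 to 3061 and 1427 to 2837 between batches, 950 to 1722 and 403 to 1652 for Tspan8, 544 to 1457 and 83 to 733 within Lgr5+, and 290 to 926 and 199 to 1017 within Lgr5-. Inhibitors called lower ranged from 0 to 2 for the Lgr5 effect and 0 to 3 within T8-, and those called higher from 1 to 4 within T8hi and 0 to 1 for the interaction and between batches. The Sfrp2 interaction ranged from -0.28 to 0.05, above 0 without Lgr5+T8- replicate 1 (0.05) or Lgr5-T8- replicate 1 (0.03). Sfrp1, Sfrp2 and Dkk3 passed for the Lgr5 effect and within T8- in each of these 8 fits. The cause of these changes was not tested. Frzb, Dkk1, Dkk2 and Notum, with 3 to 49 counts per library, are limited by depth.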
